A study of Mus musculus with 19 samples.

Results

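The genes that make cholesterol and fatty acids, with the regulators and sterol exporters tied to them, were followed in whole mouse bone marrow lacking either or both of a pair of related kinases, CDK8 and CDK19. The group was chosen by symbol: 35 named genes of the sterol regulatory element binding protein (SREBP) pathway among the 34432 genes of the table. All 35 passed the filter on low values and were among the 13976 genes tested. They comprised 18 sterol synthesis enzymes, 6 SREBP proteins and regulators, 8 fatty acid enzymes and 3 genes of sterol efflux or of the liver X receptor (LXR) response.

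CDK8 and CDK19 are alternative catalytic subunits of the Mediator kinase module, which contacts RNA polymerase II at many genes. RNA was measured by poly(A) RNA sequencing of flushed tibial and femoral marrow from C57/BL6 mice aged 8 weeks, with no treatment. The 19 libraries fell into 5 genotypes: 3 libraries of wild type (WT), and 4 libraries each of the Vav-iCre transgene alone (VAV), of Cdk8 flox/flox mice with that transgene (CDK8KO), of Cdk19 null mice (CDK19KO), and of mice combining Cdk8 flox/flox, Vav-iCre and Cdk19 null (DKO). VAV, CDK8KO and DKO thus share the transgene, and WT and CDK19KO do not carry it. The Vav promoter drives Cre mainly in blood cells, so that other cells of the marrow keep Cdk8, whereas the Cdk19 null allele is present in every cell. No label states that the libraries of a genotype are different animals. The p-values below therefore reflect library-to-library spread, part of which may be technical.

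Cells make cholesterol from acetyl-CoA through mevalonate, farnesyl diphosphate and squalene. When membrane sterol is low, the escort protein SCAP carries SREBP to the Golgi, where proteases release a fragment that turns on the genes of synthesis and uptake. INSIG proteins hold the complex back when sterol is plentiful, while oxysterols activate LXR and with it the exporters ABCA1 and ABCG1. SREBP-2 acts mostly on the sterol genes and SREBP-1 mostly on the fatty acid genes, and in liver CDK8 is known to phosphorylate nuclear SREBP-1c and mark it for degradation.

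Promoter sequences are shown for the members that rose in DKO against VAV, Insig1 and Cyp51, and for Hmgcs1, the one member with a match to the sterol regulatory element; the first 2 were picked after their values were seen. They are RefSeq sequences of GRCm38.p6, 5′ to 3′ on the gene's strand, cut so that no transcribed base of either RefSeq or GENCODE is shown. Capitals mark 4 motifs on either strand: TCACNCCAC (sterol regulatory element), CCAAT (NF-Y, read as ATTGG on the other strand), CACGTG (E-box) and GGGCGG (GC box, or CCGCCC).
Insig1, chr5:28071162-28071362, plus strand: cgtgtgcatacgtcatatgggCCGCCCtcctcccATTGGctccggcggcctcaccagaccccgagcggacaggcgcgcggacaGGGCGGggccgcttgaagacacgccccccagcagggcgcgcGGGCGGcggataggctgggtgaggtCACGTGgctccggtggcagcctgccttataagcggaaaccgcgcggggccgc
Cyp51, chr5:4104747-4104947, minus strand: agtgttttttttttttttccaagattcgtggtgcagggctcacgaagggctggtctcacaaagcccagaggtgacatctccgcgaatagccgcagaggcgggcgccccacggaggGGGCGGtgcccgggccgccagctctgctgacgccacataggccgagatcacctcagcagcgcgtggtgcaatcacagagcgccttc
Hmgcs1, chr13:119690101-119690350, plus strand: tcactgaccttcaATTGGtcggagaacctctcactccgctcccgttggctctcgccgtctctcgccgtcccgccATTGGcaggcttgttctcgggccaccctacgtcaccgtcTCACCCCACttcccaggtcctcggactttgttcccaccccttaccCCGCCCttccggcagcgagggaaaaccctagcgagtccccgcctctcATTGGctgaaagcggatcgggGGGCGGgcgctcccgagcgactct
The Hmgcs1 stretch held 1 sterol regulatory element, starting 137 bases before the start site, 3 CCAAT boxes and 2 GC boxes. Insig1 held 1 CCAAT box, 1 E-box and 3 GC boxes. In the Cyp51 stretch only 1 GC box matched. A CCAAT box starting 29 bases before the Cyp51 start site lay in the part that was cut off.

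Windows of 300 bases (250 before to 50 after a RefSeq start) were found for 27 of the 35 members. The motif TCACNCCAC stood in 1 of the 27 members and in 1.44% of 27025 genes, and a longer form of the same element in 0 members and 0.0999% of genes. CCAAT was present in 21 members (77.8%), and in 14 of 15 sterol enzymes with a window, against 41.1% of all genes. GGGCGG was present in 23 members (85.2%) against 38.2% of genes, and CACGTG in 6 (22.2%) against 8.09%. Neither the longer E-box TCACGTGA (1.12% of genes) nor the LXR direct repeat of GGTCA with 4 bases between (0.0518%) was found in a member. TCACGTGA contains CACGTG and both forms of the sterol element overlap, so those counts are not separate. These matches describe letters in the windows and say nothing about binding.

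Libraries held 14881701 to 33010241 reads in genes. Cdk19 averaged 3157 ± 99.7 (SD, n = 3) normalised counts in WT and 3668 ± 525 (SD, n = 4) in VAV, against 1091 ± 62.5 in CDK19KO and 1173 ± 43.1 in DKO. Mean Cdk8 counts were 1013 ± 249 in CDK8KO, 994 ± 230.1 in VAV and 798 ± 62 in DKO (SD, n = 4 each). A count over the whole gene still counts a transcript that lacks an exon, so it does not check the Cdk8 genotype, which rests on the labels. Skeletal muscle transcripts were high in CDK19KO replicate 4 and DKO replicate 4 (8 genes summed to 847 and 238 RPM, reads scaled to library depth, against at most 11.8 in the other libraries), and erythroid transcripts were high in VAV replicate 3 and CDK8KO replicate 1 (12 genes, 5077 and 8415 RPM, against 476 to 2533). These 4 libraries stand apart. In bulk marrow, fewer cells of a type and less RNA per cell cannot be told apart.

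Levels could be compared between genes only per length, as RPM per kilobase of exon, averaged over the 19 libraries. On that scale the most abundant member was Acly, the ATP citrate lyase that supplies acetyl-CoA (34.5 ± 5.53, SD, n = 19). It was followed by the stearoyl-CoA desaturases Scd1 (25.5 ± 11.1) and Scd2 (19.8 ± 6.24), and by Mylip (19.4 ± 3.76), an LXR-induced ubiquitin ligase that degrades lipoprotein receptors. These neighbours below Acly differed by less than their SDs. Idi1, the isopentenyl diphosphate isomerase, was the most abundant sterol enzyme (17.4 ± 4.45), and Sc5d, the lathosterol desaturase, was highest after squalene (9.51 ± 2.04). At the bottom were Tm7sf2, a sterol C14 reductase (0.426 ± 0.138), Lss, the lanosterol synthase (0.65 ± 0.284), and Mvk, the mevalonate kinase (1.25 ± 0.447).

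Summed over the 18 sterol enzymes, the reads of every DKO library but one exceeded those of every VAV library. The sums were 508, 596, 415 and 443 RPM in DKO and 417, 339, 329.6 and 423 in VAV. CDK8KO had 322, 348, 360.2 and 452, CDK19KO had 346, 351, 295 and 317, and WT had 312, 269 and 286. DKO replicate 3 lay within the VAV and CDK8KO ranges, DKO replicate 4 lay within that of CDK8KO, and WT lay below VAV without overlap. The mean was highest in DKO for 12 of the 18 enzymes and lowest in WT for 13. In DKO replicate 1 all 18 were above their mean over the 19 libraries, and in DKO replicates 2, 3 and 4 this held for 16, 11 and 10, against 8 to 15 in VAV and 7 to 16 in CDK8KO, which overlap DKO, 2 to 5 in CDK19KO, and 1 or 2 in WT. The 8 fatty acid genes showed no such order: their sums ran from 579 to 657 RPM in DKO, and the ranges were 428 to 787 for CDK8KO, 631 to 705 for VAV, 611 to 701 for WT and 507 to 642 for CDK19KO.

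**Figure D1:**
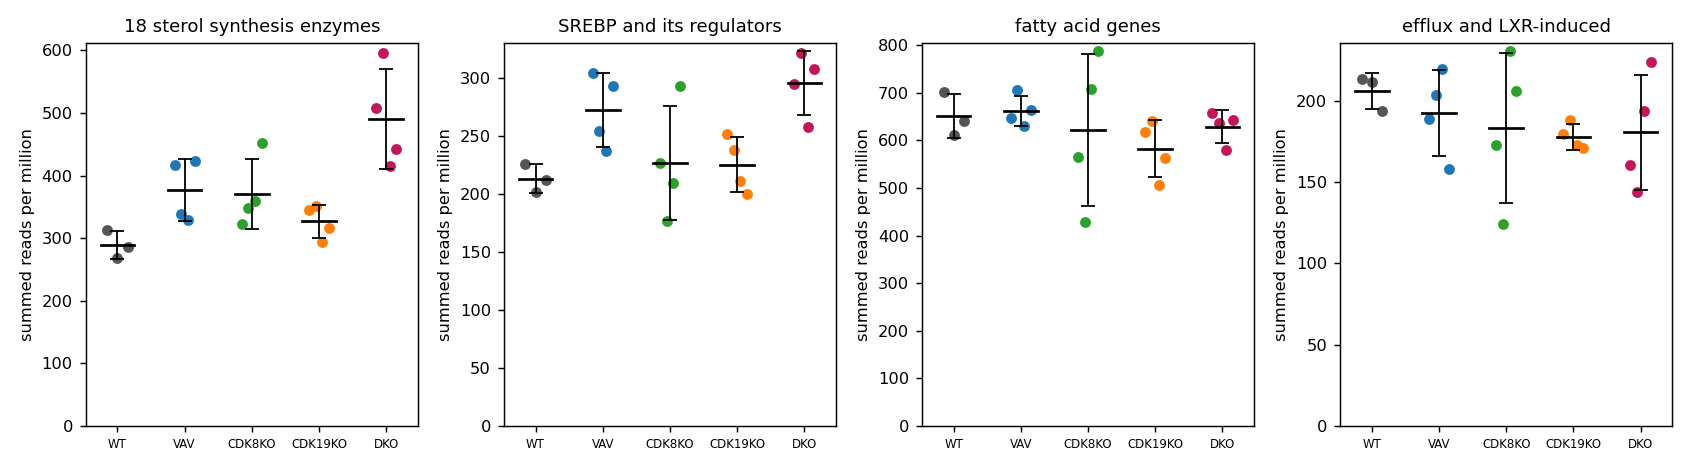
Summed RPM (vertical axis, from 0) of the 4 gene groups in each library (points), by genotype (horizontal axis), with the mean and SD (bars). The sterol enzymes reach 596 in DKO and stay between 269 and 312 in WT, while the fatty acid sums overlap between all genotypes.

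**Figure D2:**
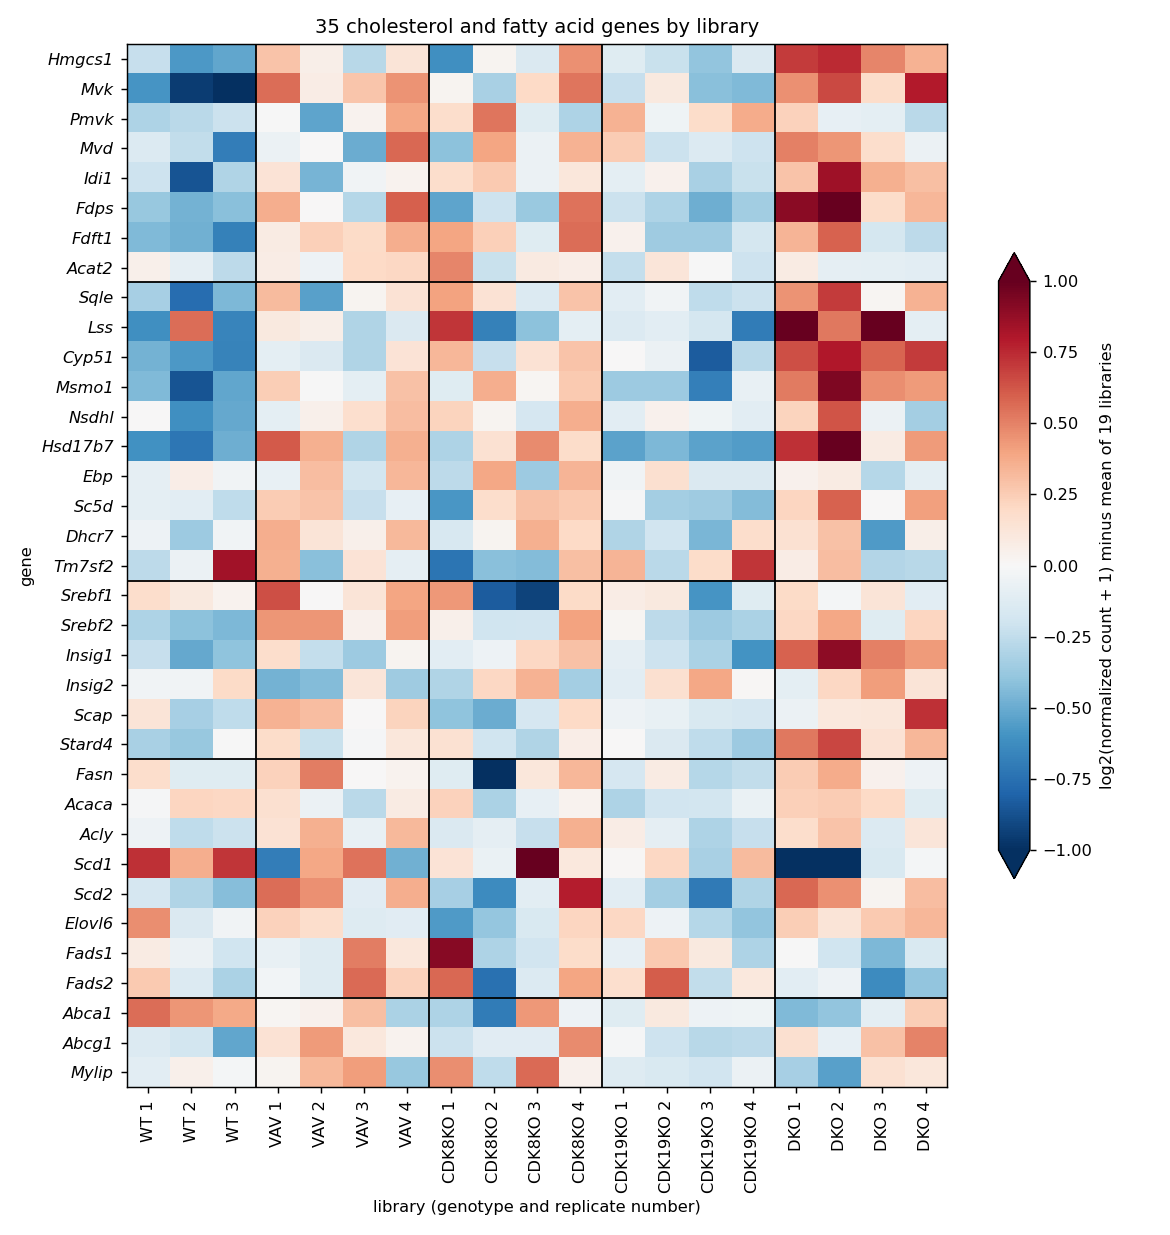
Difference of log2(normalised count + 1) from the mean of 19 libraries (colour, limited to 1 in each direction) for the 35 genes (rows, grouped by role) in each library (columns, grouped by genotype). In the upper 2 blocks, the sterol enzymes, DKO replicate 1 is above the mean throughout and WT is mostly below it.

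Loss of both kinases was compared with the Cre-matched VAV control. Of the 35 genes, 2 rose and 0 fell (limma on log2(normalised count + 1), Benjamini-Hochberg adjusted p under 0.05 over all 13976 genes), where 0.83% of all genes tested rose and 0.694% fell. Without adjustment, 9 members were higher and 0 lower at p under 0.05 (15.7% of all genes in either direction). Libraries of DKO lay above all of VAV for 5 members, namely Hmgcs1, Idi1, Cyp51, Msmo1 and Insig1, against 4.16% of all genes. The median log2 difference was 0.03 over the 35 members and 0.25 over the 18 sterol enzymes, of which 12 were higher, and −0.01 over all genes tested. edgeR passed 2 members and 1.43% of all genes, and DESeq2 passed 3 members and 3.62%. Without the 4 libraries that stand apart, limma passed 0 members and 0.801% of all genes.

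Insig1, whose protein retains SCAP and SREBP in the endoplasmic reticulum and which is itself an SREBP target, lies on chromosome 5 (28071363 to 28078662, plus strand, GRCm38). It had 899, 1111, 846 and 803 normalised counts in DKO and 676, 508, 464 and 611 in VAV. All 4 DKO libraries were above all 4 VAV libraries. The means were 915 ± 137 and 565 ± 96.6 (SD, n = 4 each), a log2 difference of 0.70 ± 0.15 (SE; 1.62-fold; limma adjusted p = 0.0204). The call was lost without DKO replicate 2 (adjusted p = 0.0684), VAV replicate 2 (0.0711) or VAV replicate 3 (0.054), and without the 4 libraries that stand apart (0.0554). It was also lost with only DKO and VAV in the limma fit (adjusted p = 0.0874).

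Cyp51, the lanosterol demethylase that begins the conversion of lanosterol to cholesterol (chromosome 5, 4081145 to 4104746, minus strand), had 608, 677, 582 and 632 normalised counts in DKO and 364, 352, 315 and 428 in VAV. No library overlapped between these groups. The means were 625 ± 40.4 and 365 ± 46.8 (SD, n = 4 each), a log2 difference of 0.78 ± 0.17 (SE; 1.72-fold; limma adjusted p = 0.0211). The limma adjusted p lay between 0.0535 and 0.062 without DKO replicate 2 or 4 or VAV replicate 1, 2 or 3, each left out alone, and was 0.131 without the 4 libraries that stand apart. With array weights it was 0.0611.

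Other sterol enzymes did not pass. Idi1 had 1626, 2406, 1709.6 and 1649 normalised counts in DKO against 1467, 968, 1301 and 1366 in VAV (log2 difference 0.53 ± 0.16, SE; limma adjusted p = 0.128). Hmgcs1, the synthase that makes HMG-CoA, had 1624, 1678, 1407 and 1277 against 1224, 1043, 825 and 1096 (0.52 ± 0.18; limma adjusted p = 0.164). Neither gene's libraries overlapped between the groups. Msmo1, the methylsterol oxidase that removes C4 methyl groups, had 1345, 1788, 1293 and 1254 against 1113, 935, 872 and 1149.6, again without overlap (0.48 ± 0.16; limma adjusted p = 0.151). Lss had 327, 211, 294 and 136 against 156, 152, 119 and 132 (0.72 ± 0.32; limma adjusted p = 0.281), and its DKO replicate 4 lay inside the VAV range. Enzymes with differences near 0 were Nsdhl (0.00 ± 0.19; 95% interval −0.39 to 0.40), the C4 decarboxylase, and Pmvk (−0.03 ± 0.22; −0.48 to 0.43), the phosphomevalonate kinase.

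Among the regulators, Stard4, a carrier of cholesterol between membranes, was 0.40 ± 0.14 higher on the log2 scale (limma adjusted p = 0.179), and Insig2, the second INSIG, 0.45 ± 0.18 higher (limma adjusted p = 0.238). The mRNAs of the transcription factors and their escort did not pass: Srebf2 differed by −0.16 ± 0.14 (95% interval −0.46 to 0.14), Srebf1 by −0.24 ± 0.25 (−0.76 to 0.28) and Scap by 0.00 ± 0.17 (−0.35 to 0.35). Scap had 979, 1098, 1100 and 1694 normalised counts in DKO, the highest in the muscle-rich replicate 4, against 1296, 1264, 1020 and 1188 in VAV. Processed SREBP protein was not measured.

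Of the 8 fatty acid genes 0 passed, and 0 had an unadjusted p under 0.05. Scd1, which makes oleate and palmitoleate, had 1033, 759, 2289 and 2507 normalised counts in DKO, while VAV had 1571, 3326, 3693 and 1818. DKO replicates 1 and 2 were the lowest of all 19 libraries, and DKO replicates 3 and 4 lay inside the VAV range (log2 difference −0.74 ± 0.36, SE; limma adjusted p = 0.33). Its paralog Scd2 did not share this spread, with 3476, 3192, 2377 and 2885 against 3424, 3202, 2153 and 2996 (0.03 ± 0.23; 95% interval −0.45 to 0.50). Fasn, the fatty acid synthase (−0.04 ± 0.21), and Acly (−0.08 ± 0.13) were near 0. The difference was −0.45 ± 0.26 for the desaturase Fads2 and −0.31 ± 0.21 for Fads1. The exporters Abca1 (−0.19 ± 0.19; 95% interval −0.59 to 0.22) and Abcg1 (0.04 ± 0.15; −0.28 to 0.36) and the ligase Mylip (−0.25 ± 0.19; −0.65 to 0.15) did not pass either.

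**Figure D3:**
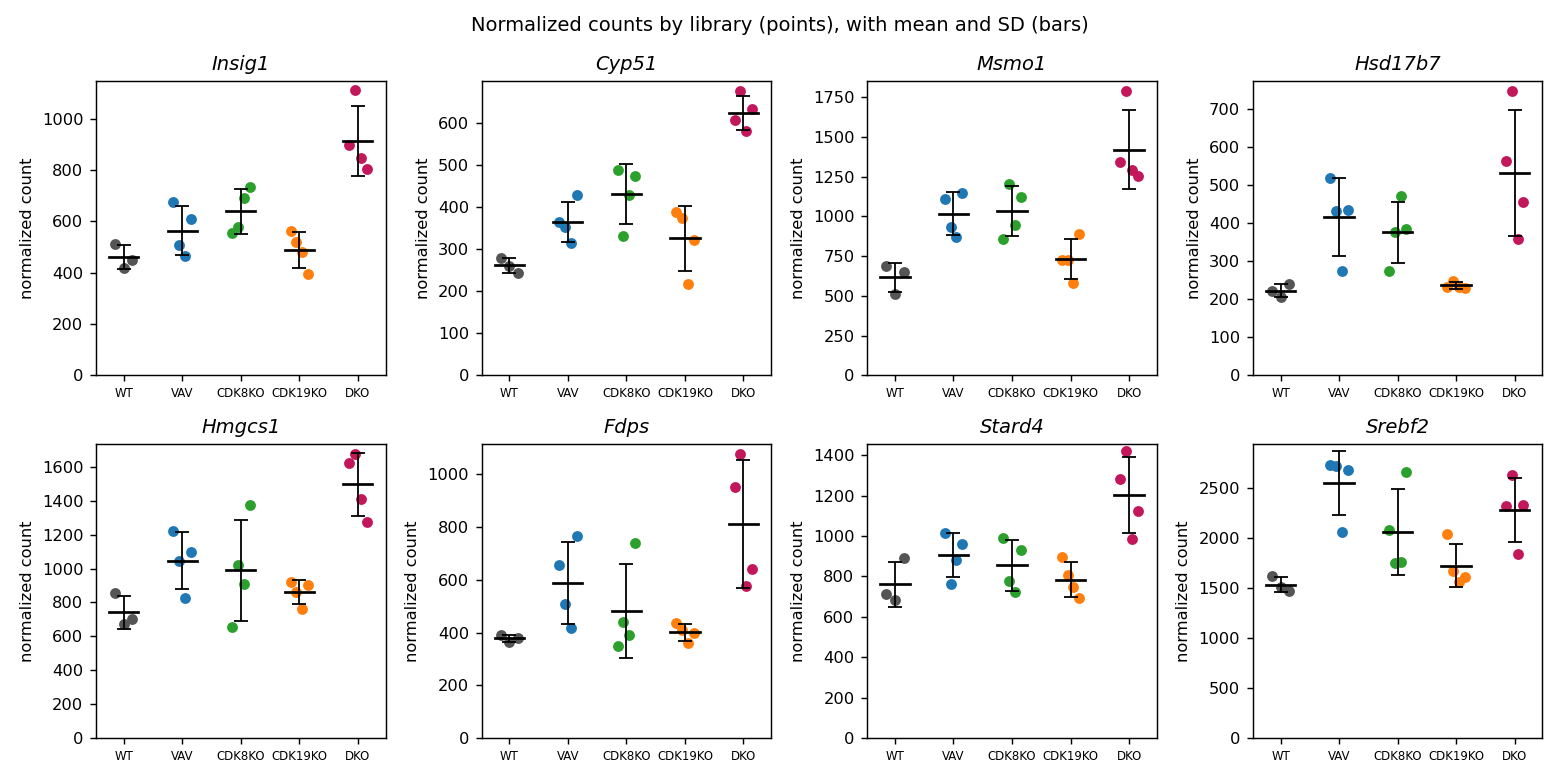
Normalised counts (vertical axes, from 0) in each library (points) by genotype (horizontal axis), with the mean and SD (bars). Shown are the 7 genes that rose in DKO against VAV or against CDK19KO, and Srebf2. For Insig1 and Cyp51 all DKO libraries lie above all others, from 803 and from 582 upward.

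Marker lists of other cell types also differed between DKO and VAV. All 8 eosinophil markers were higher in DKO (5 rose; median log2 difference 2.05) and their summed level was 169 to 796 RPM in DKO against 57.2 to 111 in VAV. All 6 megakaryocyte markers were lower (median −1.22; 92.2 to 231 against 142 to 1158), as were all 8 cell cycle genes (−0.34; 2102 to 2996 against 3031 to 3994) and 11 of 12 erythroid markers (−0.47; 808 to 1258 against 476 to 5077), and in these 3 lists 0 genes passed the test. T and NK cell markers were higher for 7 of 8 genes (median 0.84, where 1 rose and 1 fell), with sums of 117 to 211 RPM in DKO above the 90.9 to 113 in VAV, without overlap. Macrophage markers were lower for 8 of 11 genes (−0.22, of which 2 fell, and 952 to 1449 against 1085 to 1307 RPM). Adipocyte markers summed to 19.2 to 25.5 RPM in DKO, 15.9 to 50.4 in VAV and 41.4 to 61.2 in WT, and of 8, Lep was at 0 in every library. Mature neutrophil markers were lower for 8 of 8 genes (−0.51, of which 1 fell, and 16944 to 22549 against 20317 to 26456 RPM). Neutrophil precursor markers were lower for 5 of 8 (−0.39, of which 1 fell, and 1557 to 3895 against 2322 to 5775 RPM). Monocyte markers were lower for 6 of 8 (−0.24, with 0 passing), with sums of 3532 to 6008 against 2612 to 5741 RPM. The part of these cell types in the sterol gene differences was not tested.

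DKO was next compared with CDK19KO, which also lacks Cdk19 but carries neither the transgene nor the floxed Cdk8. Here 7 members rose and 0 fell, where 1.34% of all genes tested rose and 0.658% fell. Without adjustment, 17 members were higher and 1, Scd1, was lower at p under 0.05 (15.6% of all genes in either direction). Libraries of DKO lay above all of CDK19KO for 13 members, against 7.27% of all genes. The median log2 difference was 0.34 over the 35 members and 0.56 over the 18 sterol enzymes, of which 15 were higher.

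Of the enzymes up to squalene, Hmgcs1 had 919.5, 861, 763 and 906 normalised counts in CDK19KO, below every DKO library given above (log2 difference 0.79 ± 0.18, SE; limma adjusted p = 0.024). Fdps, the farnesyl diphosphate synthase on chromosome 3 (89093588 to 89101959, minus strand), had 951, 1078, 577 and 640.0 in DKO and 437, 410.4, 361 and 398 in CDK19KO. Its groups did not overlap, and DKO replicates 1 and 2 were the highest (0.97 ± 0.23; 1.96-fold; limma adjusted p = 0.0357). An annotated gene with few reads, Gm43738, covers 26.7% of the Fdps exon bases on the same strand, and the sources do not say how shared reads were divided.

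After squalene, Cyp51 had 389, 374, 218 and 323 normalised counts in CDK19KO (log2 difference 0.97 ± 0.17, SE; 1.96-fold; limma adjusted p = 0.00395). Msmo1 had 727, 729, 582 and 888 (0.96 ± 0.16; 1.94-fold; limma adjusted p = 0.00222). Both lay below every DKO library. Hsd17b7, the 3-ketosteroid reductase on chromosome 1 (169949535 to 169969241, minus strand), had 564, 745, 358 and 456 in DKO and 233, 248, 233 and 229.6 in CDK19KO. It showed the largest rise of the 7, with no overlap (1.11 ± 0.21; 2.16-fold; limma adjusted p = 0.00921). Lss (0.93 ± 0.32; limma adjusted p = 0.162), Sqle, the squalene epoxidase (0.53 ± 0.18; 0.151), and Sc5d (0.59 ± 0.18; 0.108) did not overlap either but did not pass.

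Of the regulators, Insig1 had 561, 518, 480.4 and 395 normalised counts in CDK19KO, all below DKO (log2 difference 0.90 ± 0.15, SE; 1.87-fold; limma adjusted p = 0.0025). Stard4 had 1285, 1419, 985 and 1123 in DKO and 895, 805, 746 and 692 in CDK19KO, without overlap (0.61 ± 0.14; 1.52-fold; limma adjusted p = 0.0301). The fatty acid genes gave 0 calls: Scd2 was 0.71 ± 0.23 higher (limma adjusted p = 0.132) and Scd1 differed by −0.85 ± 0.36 (0.262). The calls of Msmo1, Cyp51, Insig1 and Hsd17b7 held with each of the 8 DKO and CDK19KO libraries left out in turn. Without both muscle-rich libraries 3 members passed (0.694% of all genes) and Hsd17b7 missed the threshold (limma adjusted p = 0.0529). Without the 4 libraries that stand apart 7 passed (3.44% of all genes), but not Stard4 (limma adjusted p = 0.067). Hmgcs1 and Stard4 missed it without CDK19KO replicate 2, 3 or 4 or DKO replicate 1 or 2 (adjusted p 0.0555 to 0.0968 and 0.0702 to 0.116), and Stard4 also without DKO replicate 4 (0.0528). Fdps missed it without any 1 CDK19KO library or without DKO replicate 1 or 2 (0.0603 to 0.13). Erythroid markers were lower in DKO for 12 of 12 genes (median log2 difference −1.25; 0 passed; 808 to 1258 against 1538 to 2533 RPM), as were megakaryocyte markers for 6 of 6 (−1.47, with 0 passing, and 92.2 to 231 against 231 to 1219). Macrophage markers were lower for 8 of 11 genes (median −0.29, of which 3 fell, and 952 to 1449 against 1316 to 1796 RPM) and adipocyte markers for 5 of 6 (−0.83, of which 1 fell, and 19.2 to 25.5 against 41.5 to 61.2). Monocyte markers were higher for 6 of 8 genes (median log2 difference 0.26, and 1 rose), and their sums of 3532 to 6008 RPM in DKO lay above the 2591 to 3274 in CDK19KO without overlap. Eosinophil markers were higher for 7 of 8 genes (median 1.04, with 0 passing, and 169 to 796 against 108 to 258 RPM) and T and NK cell markers for 6 of 8 (0.88, where 1 rose and 1 fell, and 117 to 211 against 87.9 to 103). The part of these lists in the sterol gene differences was not tested.

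**Figure D4:**
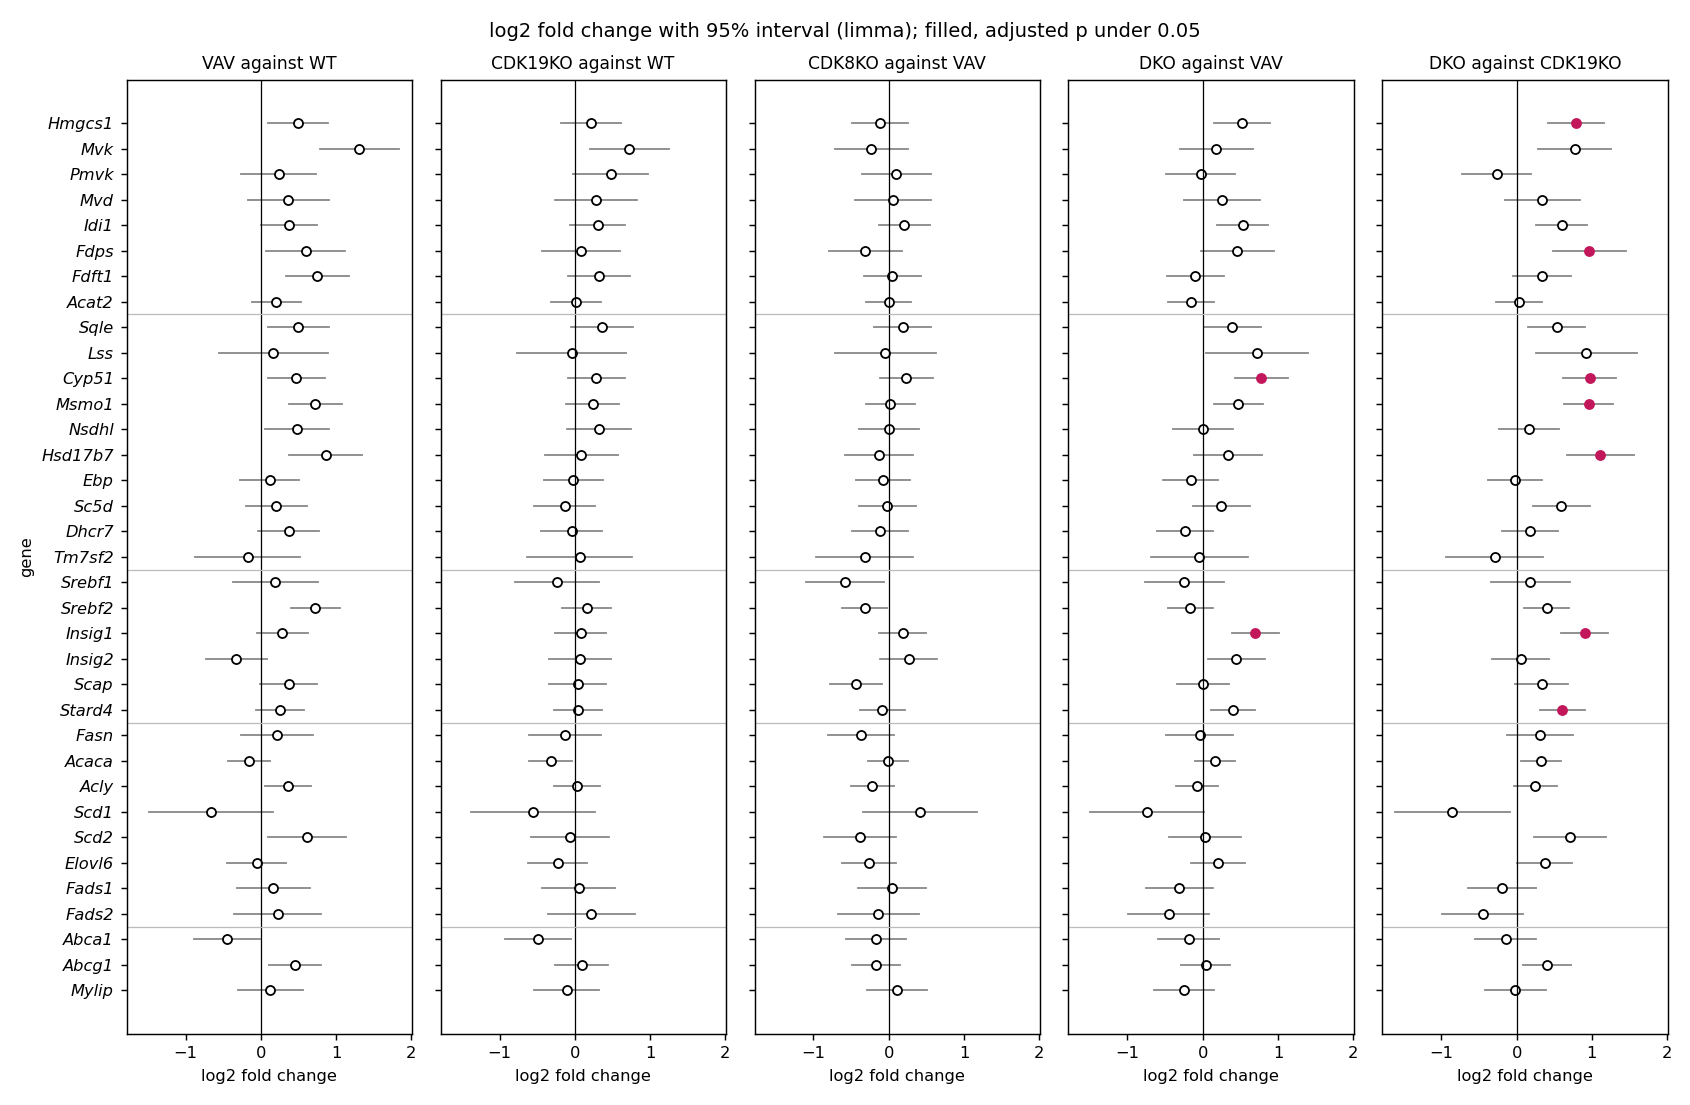
log2 difference (horizontal axis) with its 95% interval from limma (lines) for the 35 genes in 5 comparisons. Filled points mark an adjusted p under 0.05: 2 genes in DKO against VAV, 7 in DKO against CDK19KO and 0 in the other panels.

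Because DKO carries Cre and CDK19KO does not, VAV was also compared with WT, which differs from it by the transgene in the labels. No label states that these groups came from the same litters, so litter and transgene cannot be told apart. By limma 0 members passed, where 0.093% of all genes passed, but 14 were higher and 1, Abca1, lower at an unadjusted p under 0.05 (14.8% of all genes in either direction). edgeR also called 0 members (0.1% of all genes), and DESeq2 called 5, all higher (2.79% of all genes it tested). Libraries of VAV lay above all of WT for 10 members and below for 1, against 6.93% and 5.47% of all genes. The median log2 difference was 0.28 over the members and 0.42 over the sterol enzymes, of which 17 of 18 were higher.

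The largest difference was that of Mvk, a low-count gene with 104, 74.4, 85.4 and 96.5 normalised counts in VAV and 46.4, 35.9 and 26.9 in WT (log2 difference 1.31 ± 0.25, SE; 2.48-fold; limma adjusted p = 0.0509). Srebf2, which encodes SREBP-2, had 2729.9, 2725, 2066 and 2680.2 in VAV and 1621, 1512 and 1476 in WT (0.72 ± 0.15; 1.65-fold; limma adjusted p = 0.0821). Hsd17b7 had 519, 432, 275 and 433 against 222, 205 and 240.4 (0.86 ± 0.23; limma adjusted p = 0.129). None of these 3 genes overlapped between the groups. All 3 passed without VAV replicate 3, the erythroid-rich library (limma adjusted p = 0.0227, 0.0214 and 0.0231). In that fit 2.98% of all genes passed, against 0.093% with all libraries. Fdft1, the squalene synthase, had 371, 413, 400.0 and 449.8 in VAV against 219 to 258 in WT (0.75 ± 0.20; limma adjusted p = 0.127), although 18.3% of its exon bases lie in exons of the abundant gene Ctsb on the other strand and the use of strand in counting is not stated. Markers of monocytes, mature neutrophils and neutrophil precursors were higher in VAV for 8 of 8 genes in each list (median log2 differences 0.47, 0.26 and 0.37; 0 passed), and their sums were 2612 to 5741, 20317 to 26456 and 2322 to 5775 RPM in VAV against 2902 to 3759, 18500 to 22265 and 2806 to 3882 in WT. Erythroid markers were lower in VAV for 12 of 12 genes (median −0.53), eosinophil markers for 7 of 8 (−0.79) and B cell markers for 7 of 8 (−0.40). Adipocyte markers were lower for 5 of 6 (−0.73) and macrophage markers for 7 of 11 (−0.38), and 0 of these genes passed. Erythroid sums were 871, 476 and 942 RPM in VAV replicates 1, 2 and 4 and 5077 in replicate 3, against 1677 to 1913 in WT. The part of these lists was not tested.

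When the VAV against WT difference was taken from DKO against CDK19KO, 0 of 35 members passed by limma, where 0.143% of all genes passed. At an unadjusted p under 0.05 there were 2 members, and 1098 of all 13976 genes. The median log2 value over the members was −0.01, and 9 of the 18 sterol enzymes were above 0. Insig1 kept 0.62 ± 0.22 (SE; limma adjusted p = 0.474) and Cyp51 0.50 ± 0.25 (0.635), with 95% intervals of 0.16 to 1.08 and −0.02 to 1.02. Msmo1 kept 0.24 ± 0.23 (95% interval −0.25 to 0.72). Against WT itself, which differs from DKO by the transgene and both kinase alleles, 10 members rose in DKO and 0 fell, where 1.41% of all genes rose. They were Hmgcs1, Mvk, Idi1, Fdps, Sqle, Cyp51, Msmo1, Hsd17b7, Insig1 and Stard4, with log2 differences from 0.65 ± 0.15 (Stard4) to 1.49 ± 0.25 (Mvk; limma adjusted p = 0.00263). These comparisons share the DKO or the WT libraries, so their values are not independent of each other.

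Loss of 1 kinase alone gave 0 calls among the members. In CDK8KO against VAV, limma and edgeR passed 0 members and 0% of all genes, and DESeq2 passed 0 members and 0.00718% of all genes. At an unadjusted p under 0.05, 3 members were lower and 0 higher (8.31% of all genes in either direction). The groups overlapped for every member, where 1.02% of all genes lay wholly higher in CDK8KO, and the median log2 difference was −0.07 over the 35 and −0.01 over the sterol enzymes. The 3 lower members, a share close to that over all genes, were Srebf1, Scap and Srebf2. Srebf1 had 846, 351, 328 and 716 normalised counts in CDK8KO against 977, 629, 685 and 824 in VAV (log2 difference −0.58 ± 0.25, SE; limma adjusted p = 0.586). Scap had 772, 724, 905 and 1171 against 1296, 1264, 1019.6 and 1188 (−0.44 ± 0.17; limma adjusted p = 0.586), and Srebf2 differed by −0.32 ± 0.14 (limma adjusted p = 0.586). CDK8KO replicates 2 and 3 were the lowest for Srebf1 of all libraries. Insig1 and Cyp51 differed by 0.18 ± 0.15 (95% interval −0.13 to 0.50) and 0.23 ± 0.17 (−0.12 to 0.58).

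CDK8KO libraries varied more among themselves than those of the other genotypes in each gene group except the enzymes after squalene (median coefficient of variation 18.9%, against 20.1% in DKO). The median coefficient of variation of the fatty acid genes was 36.3% in CDK8KO, against 10.9% to 17.9% in the other genotypes, and that of the efflux genes 25.2%, against 6.34% to 22.9%. Scd1 reached 6033 normalised counts in CDK8KO replicate 3 and 2429 to 2790.1 in the rest, while Scd2 reached 4024 in CDK8KO replicate 4 and 1505 to 2160.2 in the rest. Against VAV the log2 differences were 0.42 for Scd1 and −0.39 for Scd2, and neither passed. The erythroid marker sum in the same 4 libraries ran from 951 to 8415 RPM, and its part was not tested.

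In CDK19KO against WT, limma and edgeR passed 0 members, where each passed 0.0215% of all genes. DESeq2 passed 0 members and 0.108% of all genes. At an unadjusted p under 0.05, Mvk was higher and Acaca and Abca1 were lower (3.07% of all genes in either direction). The groups did not overlap for 4 higher members (Mvk, Pmvk, Fdft1 and Sqle) and 3 lower ones (Acaca, Scd1 and Abca1), against 3.56% and 4.04% of all genes. The 8 enzymes up to squalene were all higher, with a median log2 difference of 0.29, while of the 10 after squalene 6 were higher (median 0.08). Over the 18 sterol enzymes 14 were higher (median 0.23), and over the 35 members 23 (median 0.07). Mvk had 59.8, 75.6, 52.4 and 51.7 normalised counts in CDK19KO (log2 difference 0.72 ± 0.25, SE; limma adjusted p = 1), and Pmvk 106, 80.7, 94.6 and 108 against 67.0, 69.1 and 71.6 in WT (0.48 ± 0.24; limma adjusted p = 1). Abca1, the exporter that loads cholesterol onto apolipoprotein A-I, had 1489, 1728, 1561 and 1572 in CDK19KO against 2386, 2192 and 2099.7 in WT (−0.49 ± 0.21; limma adjusted p = 1). Scd1 had 2557, 2929, 2026 and 3153 against 4213, 3272 and 4170.1 (−0.55 ± 0.39; limma adjusted p = 1). Acaca, the acetyl-CoA carboxylase, differed by −0.32 ± 0.14 (limma adjusted p = 1). Set against VAV in place of WT, the sign turned for Mvk (−0.59) and Scd1 (0.11).

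**Figure D5:**
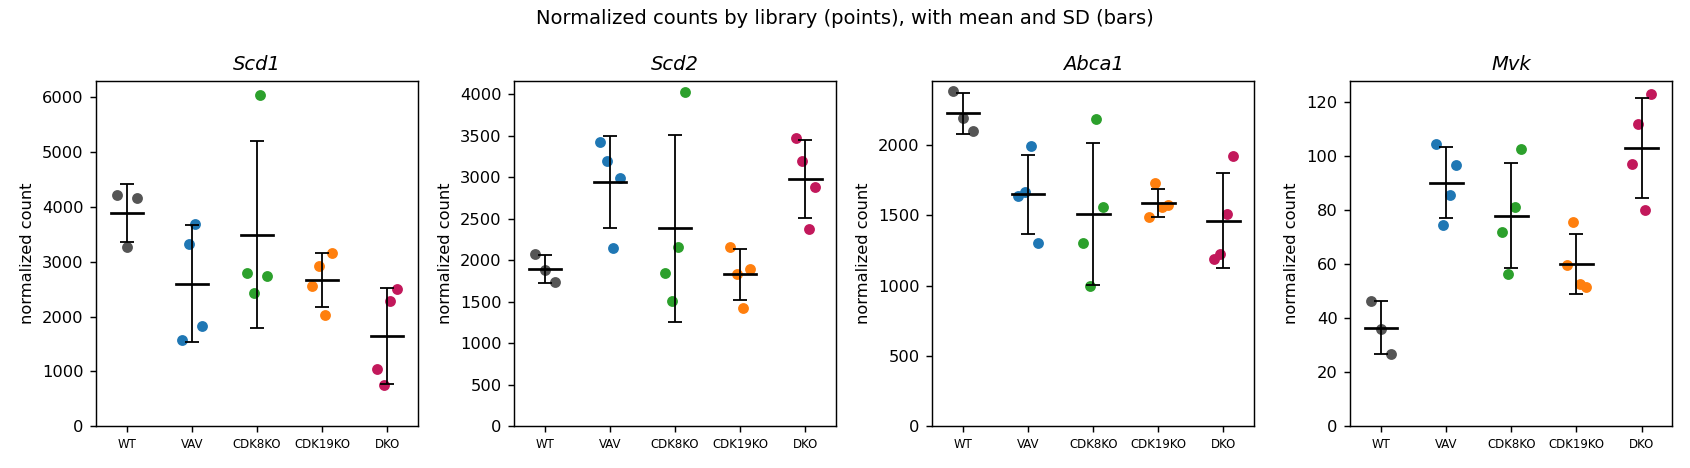
Normalised counts (vertical axes, from 0) of Scd1, Scd2, Abca1 and Mvk in each library (points) by genotype (horizontal axis), with the mean and SD (bars). WT lies above all CDK19KO libraries for Scd1 and Abca1, and below every other library for Mvk, whose WT counts are 26.9 to 46.4.

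DKO was also set against CDK8KO, which shares the transgene and the floxed Cdk8 and keeps Cdk19. By limma 0 members passed, where 1.7% of all genes passed, while 10 were higher and 1 lower at an unadjusted p under 0.05 (16.1% of all genes). edgeR called 0 members (1.57% of all genes) and DESeq2 called 6 (5.11% of all genes). The libraries did not overlap for Idi1, Cyp51, Msmo1 and Insig1, all higher in DKO, against 3.63% of all genes. The smallest adjusted p belonged to Hmgcs1 (log2 difference 0.64 ± 0.18, SE; limma adjusted p = 0.0774), then Stard4 (0.49 ± 0.14; 0.0883) and Insig1 (0.52 ± 0.15; 0.0898). The lower member was Scd1 (−1.16 ± 0.36; limma adjusted p = 0.118), for which CDK8KO replicate 3 was far above the rest. All 8 eosinophil markers were higher in DKO, with a median log2 difference of 2.76, 5 of them rose, and their sums were 169 to 796 RPM against 44.9 to 88.8. All 12 erythroid markers were lower (median −1.52, with 0 passing and 10 at an unadjusted p under 0.05, and 808 to 1258 against 951 to 8415 RPM), as were all 8 cell cycle genes (−0.41, with 0 passing, and 2102 to 2996 against 2301 to 5061). Their part in the member differences was not tested.

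Whether the loss of both kinases differed from the sum of the single losses was tested with an interaction term, (DKO − CDK8KO) − (CDK19KO − WT). Both groups of the first bracket carry the transgene and both of the second lack it, so a plain transgene difference cancels. A Cdk19 effect that depends on the transgene cannot be told apart from one that depends on Cdk8. By limma 0 members passed, where 0.15% of all genes passed, and 3 had an unadjusted p under 0.05 (8.64% of all genes), namely Elovl6, the fatty acid elongase (0.69 ± 0.25 on the log2 scale; limma adjusted p = 0.465), Acaca (0.50 ± 0.18) and Stard4 (0.45 ± 0.21; 0.578). edgeR and DESeq2 passed 0 members, and 0.129% and 0.704% of all genes. For Insig1 the interaction was 0.44 ± 0.22 (95% interval −0.02 to 0.90) and for Cyp51 0.27 ± 0.25 (−0.25 to 0.78). The median was 0.12 over the members and −0.02 over the sterol enzymes.

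Other genes of the pathway, listed apart from the 35, were mostly without calls in DKO against VAV. Of 15 tested genes of SREBP cleavage, sterol sensing and turnover 0 passed, and the smallest p-values were those of Paqr3, a Golgi anchor of SCAP (log2 difference 0.68 ± 0.30, SE; limma adjusted p = 0.273), and Rnf139, a sterol-sensing ubiquitin ligase (−0.33 ± 0.15; 0.296). Of 13 other sterol and isoprenoid enzymes 0 passed, led by Pdss1 of coenzyme Q synthesis (0.33 ± 0.14; limma adjusted p = 0.258) and Pggt1b, a prenyltransferase subunit (−0.20 ± 0.10; 0.355). Of 20 genes of sterol transport, LXR and uptake 0 passed, led by the corepressor Ncor1 (−0.34 ± 0.11; limma adjusted p = 0.151) and the oxysterol-binding protein Osbp (−0.32 ± 0.12; 0.209).

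Among 26 tested genes of fatty acid and glyceride synthesis, turnover and activation, 3 fell and 0 rose in DKO against VAV. Pnpla2, the triglyceride lipase of lipid droplets, had 1055, 1015, 784 and 1019 normalised counts in DKO and 1717, 1967, 1223 and 1587 in VAV (log2 difference −0.73 ± 0.16, SE; limma adjusted p = 0.0208). Elovl7, an elongase of long-chain fatty acids, had 226, 325, 261 and 231 against 465, 559, 381 and 368 (−0.76 ± 0.17; limma adjusted p = 0.026). Acsl1, an acyl-CoA synthetase, had 4094, 5125, 3547 and 5166 against 6197, 7004, 6418 and 7296 (−0.60 ± 0.14; limma adjusted p = 0.0283). None of the 3 overlapped between the groups. Against WT, however, Elovl7 differed by 0.03 (limma adjusted p = 0.951), since WT had 253, 238 and 265, and Pnpla2 (−0.62; 0.0626) and Acsl1 (−0.52; 0.0747) missed the threshold. The 3 calls were also lost without DKO replicate 3 (limma adjusted p = 0.0893, 0.0711 and 0.125) or VAV replicate 2 (0.0802, 0.0987 and 0.0808). Further single libraries ended 1 or 2 of them, namely DKO replicates 1 (0.0735 for Elovl7 and 0.0754 for Acsl1) and 4 (0.0952 for Elovl7) and VAV replicates 1 (0.0684 for Pnpla2 and 0.0794 for Elovl7) and 4 (0.0524 for Pnpla2 and 0.0957 for Acsl1). Mature neutrophil markers were lower in DKO for 8 of 8 genes (median log2 difference −0.51, 1 of them fell; 16944 to 22549 against 20317 to 26456 RPM), and their part was not tested.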

How the data were processed

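Per the labels' protocols, RNA was extracted with Trizol, libraries were made with a Kapa mRNA kit and sequenced in pairs on a NovaSeq X. The submitters' processing notes name Salmon 1.4.0, DESeq2 and mm10, without role or order. The authors deposited 1 table of normalised counts (a signal on a linear scale), and dividing each library by its smallest step returned whole reads for 100% of values (tolerance 0.001).

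Genes with a mean of at least 10 normalised counts were tested with limma 3.58.1 on log2(value + 1), so fold changes of low genes are understated. The fit held all 5 groups, and p-values were adjusted by Benjamini-Hochberg over 13976 genes. edgeR 4.0.16 and DESeq2 1.42.0 were run on the recovered reads and called 200 and 504 genes in DKO against VAV. On simulated data for that comparison, 61.6% of changes of 1 on the log2 scale and 90% of changes of 2 were recovered. No library pair agreed within sampling noise. Libraries were given in full for members that passed in DKO against VAV or against CDK19KO. They were given in full or as ranges for the 4 with the largest difference in CDK8KO or DKO against VAV and in CDK19KO or VAV against WT. Other pathway genes were named where they passed or had the 2 smallest p-values of their list. The members and lists were chosen with earlier results of these data known. Some related genes are not reported here.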

Additional observations from a re-analysis of the deposited data

Results flagged for a closer look

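In 11 of 140 tests of 1 gene in 1 genotype with 4 libraries, the highest or lowest library stood far from the rest (Dixon's criterion, which chance meets in about 1 of 20 tests). In DKO, replicate 2 was high for Idi1 (2406.4 normalised counts, others 1626 to 1709.6) and Msmo1 (1788.4, others 1254 to 1345), and replicate 1 for Acat2, the cytosolic thiolase (310.41, others 273 to 275). DKO replicate 4, rich in muscle transcripts, was high for Scap (1693.6, others 979 to 1100.1) and low for Acaca (1516.8, others 1895 to 1968). In CDK8KO, replicate 1, rich in erythroid transcripts, was low for Sc5d (680.39, others 1152 to 1246), replicate 3 was high for Scd1 (6033.2, others 2429 to 2790.1) and replicate 4 for Abcg1 (1535.7, others 956 to 1023). In CDK19KO, replicate 1 was high for Mvd, the mevalonate decarboxylase (126.83, others 90.9 to 96.5), and replicate 4 low for Lss (89.527, others 129 to 136). VAV replicate 3, rich in erythroid transcripts, was low for Srebf2 (2066.2, others 2680.2 to 2729.9).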

How the results depend on the processing

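Of 312 recomputed counts and medians over the members, 282 stayed near the main value and 30 moved. A count stayed if it was equal or within 1.5 times, and a median if it shifted by less than 0.126 on the log2 scale. That width is the pooled SD of the library medians within genotypes. It exceeds the main medians of DKO against VAV, the single losses and the interaction, so these could change sign and still count as stayed. Of 557 recomputed gene values, 469 kept their direction and their side of the threshold, 64 no longer passed, 19 newly passed and 5 turned sign. Those 5, all with the other control group, were Elovl7 in DKO (0.035), Mvk (−0.59) and Scd1 (0.11) in CDK19KO, and Scd1 (−0.25) and Scd2 (0.23) in CDK8KO. The other control group gave medians over the members of −0.20 for CDK19KO, 0.23 for CDK8KO and 0.46 for DKO, and 10 calls for DKO. Beside each count that follows, the percentage in brackets is the share of all genes that passed under that setting; it was 2.1% for those 10. Calls in DKO against VAV numbered 1 with array weights (1.6%), 1 with only the compared groups fitted (0.708%), 1 without the muscle-rich libraries (0.73%), and 0 without the 4 libraries that stand apart (0.801%, chosen after seeing the data). With 1 library left out they numbered 0 to 2 (0.766% to 1.62%). Calls in DKO against CDK19KO numbered 15 with array weights (8.95%), 3 without the muscle-rich libraries (0.694%) and 4 to 7 with 1 library left out (0.851% to 1.62%). Less the VAV against WT difference they numbered 0 (0.143%, median −0.0074, chosen after seeing the data). In DKO against CDK8KO there were 6 by DESeq2 (5.11%) and 0 to 3 with 1 library left out (0.751% to 3.02%). The 3 came without CDK8KO replicate 4 (3.02%, against 1.7% in the reported test). VAV against WT gave 6 with array weights (4.58%), 5 by DESeq2 (2.79%), 6 without the erythroid-rich libraries (7.58%) and 6 without the 4 libraries (5.89%), against 0.093% in the reported test. With 1 library left out it gave 0 to 4 (0.0215% to 2.98%), and the 4 came without VAV replicate 3 (2.98%). The interaction median ranged from 0.068 to 0.26 with 1 library left out. The causes were not tested. Same-numbered libraries did not clearly deviate together, and the main fit did not pair them. Of 36 pairs 6 had r over 0.1 (range −0.274 to 0.306), and 4 of 19 libraries correlated best with their own number. Weak correlations cannot exclude that the numbers mark litters or days, which the labels do not state. With the replicate block, 2 members passed in DKO against VAV (1.4%) and 7 in DKO against CDK19KO (1.88%). With 3 or 4 libraries a group, the smallest exact two-sided p for 1 gene is 0.0286. The members with the fewest normalised counts were Tm7sf2, Mvk, Pmvk and Mvd.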
